A study of Mus musculus with 7 samples.

Results

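The 500 genomic regions with the strongest Fos enrichment after kainic acid were described in mouse hippocampus, by chromatin immunoprecipitation and sequencing (ChIP-seq) with an antibody against Fos. Overlapping peaks of the 3 kainic acid libraries (1 bp or more in common) were joined into regions. This gave 66721 regions, of which 11853 lay on chromosomes 1 to 19 and had a peak in all 3 libraries. The 500 members were chosen by the authors' fold enrichment: each of the 11853 regions was ranked in each list by its highest fold (1 is the highest), and the 500 with the lowest mean rank were kept. The other 11353 regions served as the comparison. Because the fold chose the members, their folds and ranks are given below as a description and support nothing.

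All libraries came from wild-type C57BL/6J mice aged 2 months. One group of 3 libraries came from animals given saline (PBS), and the other 3 from animals given kainic acid by the intraperitoneal route in 2 injections of 10 mg/kg, 30 min apart. Kainic acid animals were taken 1 hour after the first injection and only if they showed seizures of level 4, so this group holds responders alone. One input library was not analysed here. The labels name whole hippocampus and do not say how many animals stand behind a library, so the spread between libraries may be technical. In such bulk chromatin, binding in fewer cells and weaker binding per cell cannot be told apart.

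Fos is the product of an immediate early gene that neurons switch on after strong activity. It pairs with Jun proteins to form AP-1, a transcription factor that binds mostly at enhancers away from gene starts. Its motif was searched here in the loose form TGANTCA, in which N is any base. Kainic acid activates glutamate receptors of the kainate type and drives hippocampal neurons into seizure activity, a classical trigger of Fos.

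DNA sequence was available only for windows at gene starts, each holding 250 bases before and 50 bases from the start (RefSeq, GRCm38.p6). Members overlapped 12 such windows of protein-coding genes, with more than 1 window at S100a3 under the same member. In 3 of these genes the point of the member (the median of its 3 summits) lay inside the window. These were Trim9 (an E3 ubiquitin ligase of neurons), Pacsin2 (a membrane-bending protein of endocytosis) and Srpk2 (a kinase of splicing factors). The 250 bases before the start are shown for Pacsin2 (minus strand, chr15:83447881-83448130) and Srpk2 (minus strand, chr5:23616572-23616821), because the member's point lay 106 and 241 bases upstream of the start there. Of the members within 1 kb of a start, the one of best rank was at Sertad1 (plus strand, chr7:27486703-27486952), a regulator of cell-cycle transcription, and its point lay 336 bases downstream of the start. For Trim9 (minus strand, chr12:70347581-70347610) and Zkscan1 (plus strand, chr5:138085092-138085121), a zinc-finger factor, 30 bases around a motif just past the start are shown. Capitals mark matches to TGANTCA. Apart from Sertad1, these were chosen after their values were seen.
Pacsin2: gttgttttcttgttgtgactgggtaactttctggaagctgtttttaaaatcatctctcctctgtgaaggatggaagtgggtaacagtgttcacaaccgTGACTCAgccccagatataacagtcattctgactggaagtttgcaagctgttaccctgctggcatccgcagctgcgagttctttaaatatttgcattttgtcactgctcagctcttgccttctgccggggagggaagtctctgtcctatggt
Srpk2: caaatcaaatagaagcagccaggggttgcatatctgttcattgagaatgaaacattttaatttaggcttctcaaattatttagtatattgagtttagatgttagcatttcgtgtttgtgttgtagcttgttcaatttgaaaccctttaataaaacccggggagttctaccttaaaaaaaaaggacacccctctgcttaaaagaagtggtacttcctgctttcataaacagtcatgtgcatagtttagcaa
Sertad1: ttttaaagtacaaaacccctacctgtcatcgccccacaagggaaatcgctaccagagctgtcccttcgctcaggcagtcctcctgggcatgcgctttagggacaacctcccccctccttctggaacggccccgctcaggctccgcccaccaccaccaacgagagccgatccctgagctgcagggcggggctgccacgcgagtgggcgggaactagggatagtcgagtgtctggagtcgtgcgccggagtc
Trim9: gtaggaaaggaTGAATCAtcccgccccact
Zkscan1: tccggtctttgTGACTCAttgtgcctgtgg

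The AP-1 motif TGANTCA, which reads the same on both strands, was found in 3 of the 12 windows under members, those of Trim9, Zkscan1 and Pacsin2 (25.0%, 95% Clopper-Pearson interval 5.49 to 57.2). It was in 95 of 426 windows under the other regions (22.3%, 18.4 to 26.6) and in 1417 of all 20085 windows (7.06%). Windows under members and under other regions thus held it at a similar share, with an interval too wide at 12 windows to tell them apart. The match was TGAATCA at Trim9 and TGACTCA at Zkscan1 and Pacsin2. The cAMP response element TGACGTCA, the site of CREB, was in 0 of the 12 windows under members, in 15 of 426 under the other regions and in 2.3% of all windows. A TGACGTCA cannot match TGANTCA at the same place. No motif was searched in the other members, which lie away from these windows.

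In the lists of kainic acid replicates 1, 2 and 3, the median fold of the members was 9.82, 18.9 and 11.3. The other regions had medians of 4.56, 7.52 and 4.97. The lowest fold of a member was 6.52, 12.5 and 7.61. In 496 of the 500 members the highest of the 3 folds was that of replicate 2. A fold belongs to 1 library and is not scaled between libraries, so this order between lists is no measure of binding.

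Members had more reads over the summit than the other regions, over a slightly lower local background. Both come from the same peaks as the fold and are a description. Reads over the summit were solved from the deposited fold and p-value. The median member had 46, 81 and 65 reads in kainic acid replicates 1, 2 and 3, against 23, 34 and 31 reads for the other regions. Over the 3 lists the median pileup averaged 64.0 ± 17.5 reads (SD, n = 3) for members and 29.3 ± 5.69 reads for other regions, and it was higher for members within each list. Local background was slightly lower for members in each list. Its medians were 3.498, 3.09 and 4.75 reads for members and 4.02, 3.32 and 4.97 reads for the others. Whether this background came from the same library or from the input is not given.

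**Figure D1:**
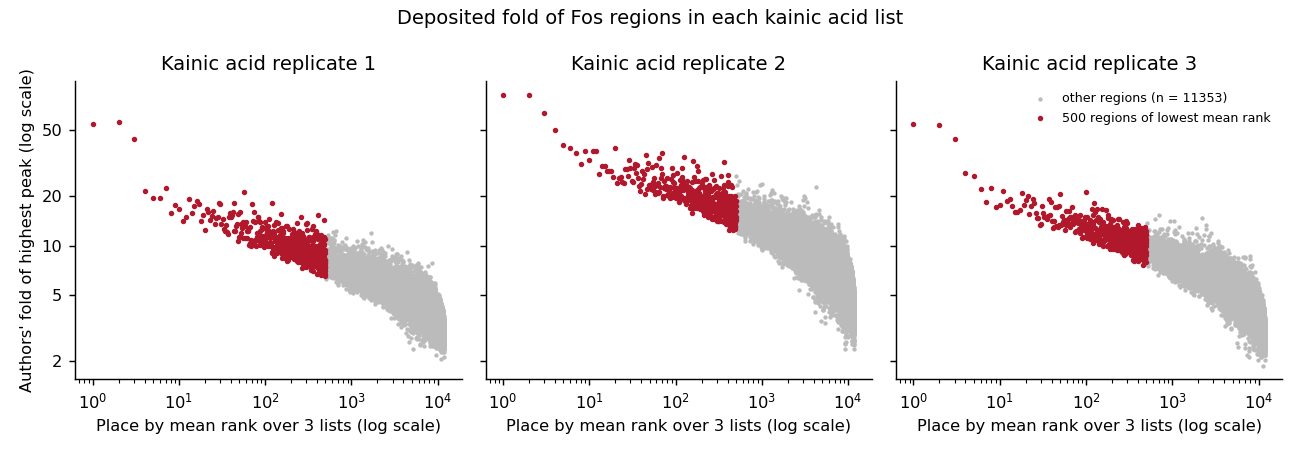
The authors' fold of the highest peak (log axis) against the place of a region by its mean rank (log axis), 1 panel for each kainic acid list. The 3 regions of best rank have the highest folds in every list, at least 44.1, and the folds run on without a step at place 500, where the 500 members (red) meet the 11353 other regions (grey).

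Ranks of single members differed between lists. In replicates 1, 2 and 3, 359, 363 and 369 of the 500 members were among the 500 highest of that list. All 3 lists placed 214 members there, exactly 2 lists placed 174, 1 list placed 101 and no list placed 11. The widest gap between ranks belonged to a region inside Mllt3 (a subunit of a transcription elongation complex), with ranks 149, 118 and 1678 in replicates 1, 2 and 3. Regions inside Gsg1l, an auxiliary subunit of AMPA receptors, and Wnt7b, a Wnt ligand, were uneven in another list. Gsg1l ranked 1718.5, 223 and 199, and Wnt7b ranked 1608.5, 90.5 and 183.5, so both ranked lowest in replicate 1.

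The boundary at place 500 separates near-equal regions. Just inside were regions near Arf2 (mean rank 725.7), Ncs1 (729.8) and Arsj (730.3). Just outside were those near Mfsd11 (730.8), Cntd1 (734) and Vat1l (734.3). The Arsj region had folds of 7.63, 14.8 and 10.4 and the Mfsd11 region 6.88, 18.5 and 10.5.

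A choice that leaves 1 list out shows how far the strongest regions recur in a library that did not choose them. When 500 of the same 11853 regions were chosen on 2 lists, 60.4% of them were among the 500 highest of replicate 1, 63.2% of replicate 2 and 62.8% of replicate 3. The mean was 62.1% ± 1.51 (SD, n = 3 lists). Of the regions not chosen, 1.74%, 1.61% and 1.70% were that high. The chosen regions had a median rank of 358, 352.25 and 338.5 in the list left out, and a few fell far down, to rank 9767, 9487 and 6086. All these regions had a peak in the left-out list by construction, which also limits how low they could fall.

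The first 3 members stood apart in every library. The region inside Nell2, which encodes a secreted neuronal glycoprotein, had 226, 305 and 273 reads over its summit in kainic acid replicates 1, 2 and 3. Inside Atxn1, the gene of ataxin-1, a nuclear regulator of transcription, the region had 259, 337 and 303 reads. The region beside Ankrd12, a nuclear ankyrin repeat protein, had 236, 326 and 298 reads. The region at place 4, near the bicarbonate transporter gene Slc4a7, had 96, 187 and 146 reads, fewer than each of these 3 in every list. Their widths of 1627, 1492 and 1959 bp were within the range of the other members, and their 3 summits lay within 39, 57 and 53 bp of each other.

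The next places had lower and closer folds, given here in the order of replicates 1, 2 and 3. The regions inside Glis3 (a zinc-finger transcription factor, chr19:28436021-28437140) and Slc9a9 (an endosomal sodium-proton exchanger, chr9:95168057-95169524) had folds of 17.5, 37.6 and 17.1 and of 14.9, 37.5 and 18.6. Those near Slc28a3 (a nucleoside transporter) and Lrp11 (a membrane protein of the LDL receptor family) had 14.2, 37.8 and 21.5 and 19.05, 27.1 and 19.2. For Slc28a3 the summits of the 3 lists spanned 354 bp, the widest span among these 20.

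Of the rest of the first 20, the region inside Dlgap1, a scaffold that binds PSD-95 under glutamate receptors, held place 15 (chr17:70753096-70754414) with folds of 17.4, 30.4 and 16.0. Inside Rimbp2, which links presynaptic calcium channels to vesicle release, place 18 (chr5:128841324-128842487) had 14.1, 28.2 and 20.9. Place 20 lay inside Baiap2, an actin regulator of dendritic spines (chr11:119991039-119992275), with 12.5, 39.0 and 18.97. Pkp2, a desmosome protein, held place 14 with 15.8, 30.2 and 17.5. The region near Ifrd1, a transcriptional coregulator, held place 19 with 15.4, 26.0 and 17.7.

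Others of the first 20, and also place 22, were far from any protein-coding gene. Place 10 (chr3:120786059-120787422) was 368.6 kb from Rwdd3, the nearest gene, with folds of 16.7, 33.1 and 17.6. Place 16 (chr3:56961723-56963382) was 322.7 kb from Tm4sf1, with 18.6, 28.3 and 16.0, and place 17 (chr4:94343023-94343967) was 156.6 kb from Caap1, with 17.8, 28.3 and 16.5. Place 22 (chr2:8627903-8629171) was 1.23 Mb from Gata3 and had 16.1, 25.7 and 15.5. In all, 5 members lay over 1 Mb from a protein-coding gene, among them place 7, whose nearest gene is Cdh2.

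Members were wider than the other regions. The merged width of members had a median of 1139.5 bp (quartiles 946.5 and 1407.25) against 833 bp (662 and 1052). The median width of the highest peak was 679, 981.5 and 1014 bp in replicates 1, 2 and 3 for members and 391, 711 and 659 bp for the others. The mean over lists was 891.5 ± 184.7 bp (SD, n = 3) against 587 ± 171.7 bp. Members were wider within each list, and the 2 means differed by more than 1 SD between lists. That SD is the spread of peak width between lists, not of the difference within a list. Width comes from the same peaks as the fold and is a description. The widest member, 3029 bp, lay 696.6 kb from Kcna4 (chr2:108022497-108025525), followed by 1 of 2937 bp upstream of Stk40 and 1 of 2805 bp near Diaph3. The narrowest were 468 bp inside Adam12, 513 bp inside Prkch and 535 bp near Mitf.

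Summits of the 3 lists lay closer together at members. The highest and the lowest of the 3 summits were a median of 59.5 bp apart (quartiles 37 and 89) at members and 126 bp (73 and 212) at other regions. Between replicates 1 and 2, 1 and 3, and 2 and 3 the median distance was 36, 37 and 33.5 bp for members and 70, 79 and 76 bp for the others, a mean of 35.5 ± 1.80 bp (SD, n = 3 pairs) against 75 ± 4.58 bp. Every pair of lists showed the difference, which was larger than the spread between pairs. The pairs share lists, so they are not independent, and their SD is no measure of the spread between libraries. At 202 members all summits lay within 50 bp, and at 10 they were over 200 bp apart. Most members, 440, were a single peak in each list, and 60 held more than 1 peak in some list, as did 1225 of the 11353 other regions. Reads over the summit differed between the sets as given above, and their part in the summit distance was not tested.

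**Figure D2:**
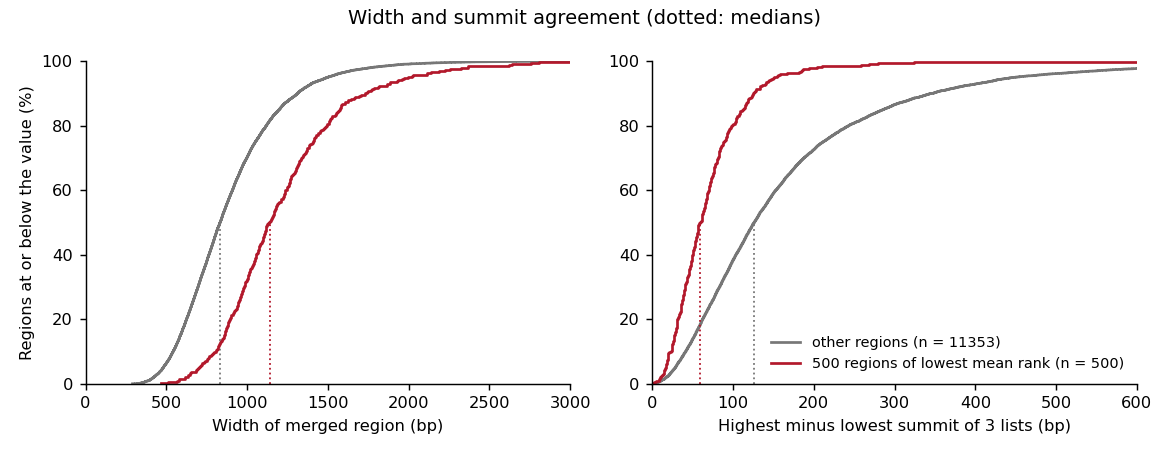
Cumulative share of regions (percent) against merged width (left, bp) and against the distance between the highest and lowest summit of the 3 lists (right, bp), for 500 members (red) and 11353 other regions (grey). Dotted lines stand at the medians, 1139.5 and 833 bp for width and 59.5 and 126 bp for summits; the axes end before the few longest values.

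The saline libraries took no part in the choice. Their lists held 7, 3277 and 2 peaks for replicates 1, 2 and 3, so nearly every overlap rests on replicate 2. A saline replicate 2 peak overlapped 41 of the 500 members (8.20%, 5.95 to 11), against 1.87% of the other regions (212 of 11353, 1.63 to 2.13). These intervals do not overlap, but they cover counting error only and regions are not replicates. With saline summits within 200 bp of the member's point, a measure that does not depend on region width, it was 35 members (7%, 4.92 to 9.60) against 0.987%. Saline replicate 1 overlapped 4 members and 0 of the other regions (0%), and saline replicate 3 overlapped 0 members and 0 others (0%), its 2 peaks lying on chromosome Y. Without saline replicate 2 the share with a saline peak was 0.800%, from those 4 members. A total of 457 members had no saline peak.

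The comparison was repeated by position. A gene end here is either border of the gene span, the start included. More than 1 kb from any gene end, 35 of 481 members had a saline replicate 2 peak (7.28%, 5.12 to 9.97) against 1.19% of 10580 other regions. Within 1 kb of a gene end it was 6 of 19 members (31.6%, 12.6 to 56.6) against 11.1% of 773 others (9.00 to 13.6). The share was higher for members in both settings, but at gene ends, with few members, the intervals overlap. Overlapped saline peaks ranked higher by fold at members, but not by reads. By the authors' fold within saline replicate 2, the median rank was 649.5 of 3277 at members and 1521 at other regions. The median pileup of the same saline peaks was 19 reads at members (quartiles 16 and 23) and 19 reads at other regions (16 and 22). Of the 17 regions whose saline peak was among the 100 highest of that list, 10 were members.

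The 4 members with a saline replicate 1 peak were the Nell2, Atxn1 and Ankrd12 regions and place 33, near Arhgap26. Their saline replicate 1 pileups were 19, 22, 25 and 12 reads, against at least 226, 259, 236 and 55 reads in any kainic acid list. Nell2 and Arhgap26 also had a saline replicate 2 peak, with 15 and 19 reads. Libraries differ in depth, which the lists do not give, so these pileups are not scaled.

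After Nell2, the best-placed members with a saline replicate 2 peak were those of Rimbp2, Baiap2 and Arhgap26, followed by regions near Setd3 (place 37) and Ppl (place 50). The member inside the RefSeq span of Npas4, an activity-dependent transcription factor of neurons, had a saline replicate 2 fold of 6.45, which ranked 34 in that list. Its kainic acid folds were 12.7, 24.2 and 13.9. Next came regions near Rasgrp1 (saline fold 5.23), inside Pebp4 (4.93) and near Nanos3 (5.60).

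**Figure D3:**
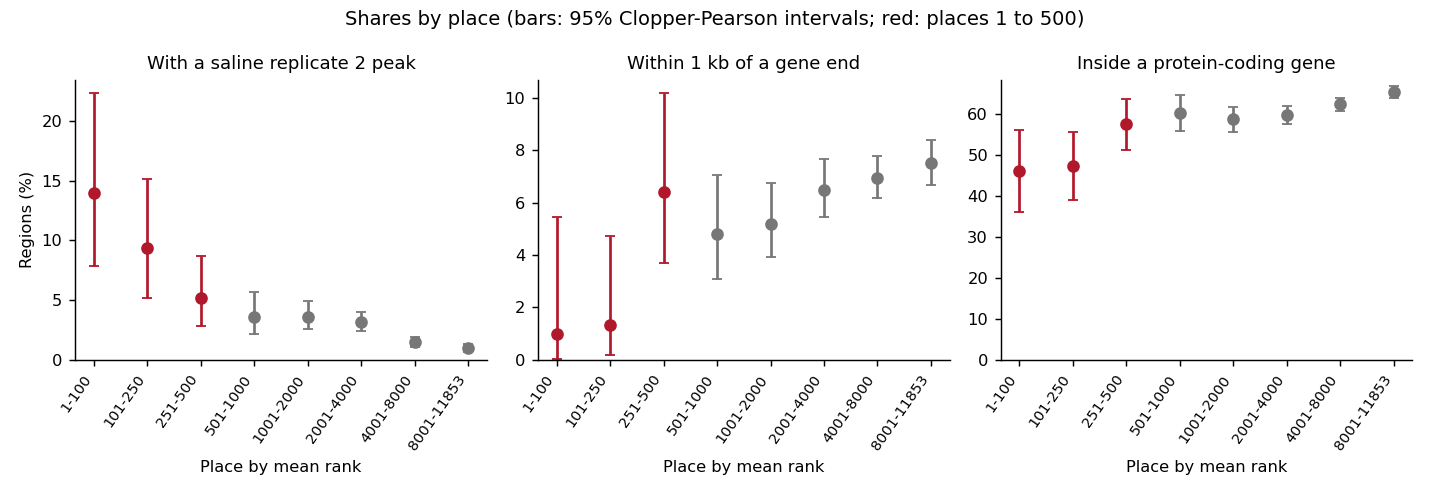
Share of regions (percent, with 95% Clopper-Pearson intervals) with a saline replicate 2 peak, within 1 kb of a gene end, and inside a protein-coding gene, by place in the order of mean rank. The saline share falls from 14.0% at places 1 to 100 to 0.960% at places 8001 to 11853, while the share inside genes goes from 46.0% to 65.4%. Red marks the 500 members.

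The saline share was lower at later places, with a level stretch from place 501 to 2000. It was 14.0% at places 1 to 100 (7.87 to 22.4), 9.33% at 101 to 250, 5.20% at 251 to 500, and 3.60% both at 501 to 1000 and at 1001 to 2000. Places 2001 to 4000 had 3.15% and places 8001 to 11853 had 0.960% (0.677 to 1.32). Pileup and width fell in the same order, from medians of 63, 104 and 85 reads and 1257.5 bp to 20, 25 and 24 reads and 719 bp. Their part in the saline share was not tested.

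Members lay inside genes less often than the other regions. Of the 500 members, 261 were inside a protein-coding gene (52.2%, 47.7 to 56.7), against 62.6% of the other regions (61.7 to 63.4). The gene table gives no exons, so exonic and intronic positions cannot be told apart. Among members inside genes, the median gene length was 149.5 kb, against 153.9 kb for other regions. Of the 239 members outside genes, 179 were within 100 kb of a gene and 60 (12%, 9.28 to 15.2) were farther. The other regions had 11.4% beyond 100 kb, so this share was near the background. Beyond 50 kb the shares were farther apart, 21% of members against 16.5% of the other regions. By place, 46.0% of places 1 to 100, 47.3% of 101 to 250 and 57.6% of 251 to 500 were inside a gene.

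Few members were at ends of genes, counting either border of the gene span, so gene starts are included. Up to 1 kb from a protein-coding gene's end there were 19 members (3.8%, 2.3 to 5.87), against 6.81% of the other regions (6.35 to 7.29), and within 10 kb there were 119 (23.8%, 20.1 to 27.8) against 27.6%. At 1 kb the intervals are apart and at 10 kb they overlap. Of these 19, only 3 were among the first 250 places. With members ranked by −log10 q in place of the fold, the share at gene ends was 5.80% against 6.75% of the other regions, a smaller difference. Over the chromosomes with start positions, 12 of 480 members (2.5%, 1.30 to 4.33) were within 1 kb of a gene start, 8 upstream and 4 downstream, against 5.41% of the other regions. Starts were known for 16457 of 20665 protein-coding genes, which lowers both shares.

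Among the members at gene ends, that of Sertad1 (chr7:27486867-27487851) had folds of 9.83, 24.1 and 14.3 in replicates 1, 2 and 3 and a saline replicate 2 fold of 5.94. The member beside Trib1, a pseudokinase that targets transcription factors for degradation, lay 0.101 kb outside the gene (chr15:59648231-59649095), with 8.43, 24.7 and 13.1. Those at Rapgef3, an exchange factor activated by cAMP, and Smad1, a mediator of BMP signals, had 10.5, 19.7 and 9.01 and 9.31, 16.7 and 10.1. Members at ends of Bcdin3d, Sfxn3, Ercc1, Spef1l, Slc39a6 and Sh3bgrl3 held places 109 to 315.

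The share of members with a close neighbour was near the background. Another region of all 3 lists lay within 10 kb of 135 members (27.0%, 23.2 to 31.1), against 25.7% of the other regions. Members themselves were mostly single: 8 had another member within 10 kb, 32 within 50 kb and 46 within 100 kb. The closest pair was 1.857 kb apart inside Nell2, at places 1 and 57. Of the 245 genes that held a member, 14 held 2 and Btbd9, an adaptor of a ubiquitin ligase, held 3. The 3 Btbd9 regions had places 39, 278 and 362, and the last had folds of 6.96, 32.1 and 12.1, below the member median in replicate 1 and above it in replicates 2 and 3. Genes with 2 members included Atxn1, Nell2, Gsg1l, Shank2 and Dlgap2, and Kcnc4, a voltage-gated potassium channel, whose regions were 4.614 kb apart.

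Genes of chosen lists were counted as near when a member lay in the gene or within 100 kb of it. Among all 20665 protein-coding genes on these chromosomes 6.31% had a member within 100 kb and 1.66% within 10 kb. Any region of all 3 lists was present within 100 kb of 60.4% of genes and within 10 kb of 24.7%. Long genes and genes with many Fos regions have more chance to be counted, so regions were also counted: members are 4.22% of all 11853.

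Of 48 activity-regulated genes, 12 had a member within 100 kb (25.0%, 13.6 to 39.6) and 4 within 10 kb (8.33%). Around these genes lay 187 regions of all 3 lists, of which 15 were members (8.02%, 4.56 to 12.9), an interval whose lower end is just above 4.22%. Within 10 kb it was 4 of 72 regions (5.56%, 1.53 to 13.6), and at 100 kb it was 8.64% (3.55 to 17.0) for the transcription factors alone and 7.55% (3.31 to 14.3) for the effectors alone, intervals that all include 4.22%. Transcription factors had 6 of 20 genes with a member. Place 54 lay inside the RefSeq span of Npas4, 8796 bp from the nearest gene end. Place 167 was 6.928 kb from Junb (chr8:84985101-84986548), a Jun subunit of AP-1, with folds of 9.20, 21.3 and 12.1. Klf2, a zinc-finger factor, had place 242 at 7.97 kb, with 8.30, 21.3 and 11.2. Egr3, an early growth response factor, had place 75 at 55.9 kb, and that region lies inside Pebp4, with 10.3, 22.9 and 15.3.

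Of the 4 genes of Fos proteins, Fos and Fosb had a member within 100 kb, and Fosl1 and Fosl2 had none, with best regions at places 4042 and 4468. Fosb had places 281 and 434, both over 30 kb away and nearest to Ercc1. Fos had place 488 at 92.7 kb (chr12:85569467-85570549), nearest to Jdp2, an AP-1 repressor, with folds of 8.16, 13.2 and 12.9. The best region within 100 kb of Jun was at place 510, just outside the members, and that of Egr1 at place 6931. Nr4a1, Arc, Homer1 and Bdnf had no member within 100 kb, and their best regions held places 2260, 1095, 978 and 2354.

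Among the 28 effector genes, 6 had a member within 100 kb (21.4%). Trib1 had place 170. Rasgrp1, an activator of Ras, had places 59 and 117, at 89.4 and 44.5 kb, with folds of 11.2, 31.0 and 13.3 and of 9.96, 20.0 and 16.7. Vgf, a precursor of secreted neuropeptides, had place 146 at 18.9 kb, and Nptx2, a pentraxin that gathers AMPA receptors, had place 193 at 82.4 kb. The kinase genes Sik1 and Plk2 had places 236 and 443, and 439.

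The next lists held synaptic and channel genes. Of 15 postsynaptic scaffold genes, 5 had a member within 100 kb (33.3%, 11.8 to 61.6): Dlgap1, Dlgap2, Dlg2, Shank1 and Shank2, which anchor receptors in the postsynaptic density. Of the 165 regions around the scaffold genes, 8 were members (4.85%, 2.12 to 9.33). Potassium channels had 3 of 20 genes, Kcnma1, Kcna4 and Kcnd3. Glutamate receptors had 1 of 23, Grin2a, whose member was 84.3 kb away, and 1 of 115 regions there was a member (0.870%, 0.0220 to 4.75). GABA-A receptors had 1 of 11, Gabrg3. At 100 kb both intervals, for glutamate receptor and for scaffold regions, include 4.22%. Within 10 kb, 0 of 94 glutamate receptor regions were members (0%, 0 to 3.85), an interval that ends below 4.22%. For scaffold regions within 10 kb it was 7 of 143 (4.90%, 1.99 to 9.83), an interval that includes 4.22%. The glutamate receptor interval at 10 kb is 1 of many over the lists and reaches, and it treats regions as independent. Of these 94 regions, 14 lay within 10 kb of Gria1 and 14 of Grin2a.

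Markers of cell types were counted in the same way, and a region near a gene is no measure of its expression. Neuron markers had a member within 100 kb in 5 of 19 genes (26.3%, 9.15 to 51.2): Syt1, Neurod2, Rbfox3, and Nefl and Nefm, which share 1 region. Astrocyte, oligodendrocyte and microglia markers had 0 of 10, 0 of 9 and 0 of 10. Their intervals of 0 to 30.8, 0 to 33.6 and 0 to 30.8% include the 6.31% of all genes. Endothelium markers had 1 of 10 (Emcn). Liver markers had 1 of 20 (Alb, 66.8 kb from a region whose nearest gene is Ankrd17). Around the neuron markers 4 of 60 regions were members (6.67%, 1.85 to 16.2), an interval that includes 4.22%. Around the astrocyte, oligodendrocyte and microglia markers it was 0 of 17, 0 of 12 and 0 of 13 regions. Their intervals of 0 to 19.5, 0 to 26.5 and 0 to 24.7% include 4.22% as well. Any region of all 3 lists was within 100 kb of 15 of 19 neuron, 8 of 10 astrocyte, 6 of 9 oligodendrocyte, 7 of 10 microglia, 6 of 10 endothelium and 11 of 20 liver markers. Within 10 kb these counts were 13, 5, 1, 2, 3 and 4.

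**Figure D4:**
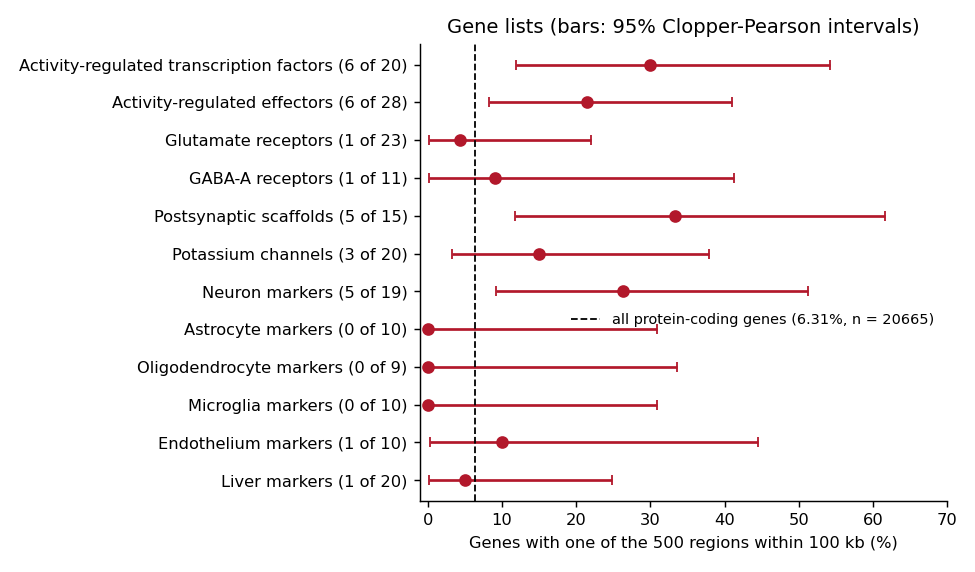
Share of genes (percent, with 95% Clopper-Pearson intervals) that have 1 of the 500 members inside or within 100 kb, for each gene list, with the genes counted of those in the list in brackets. The dashed line is the share of all 20665 protein-coding genes, 6.31%. Activity-regulated transcription factors (30.0%) and effectors (21.4%), postsynaptic scaffolds (33.3%) and neuron markers (26.3%) have intervals above it. Long genes and genes with many regions have more chance to be counted. Counted per region at 100 kb, the shares were 8.64%, 7.55%, 4.85% and 6.67% in the same order. Each of these has an interval that includes 4.22%, the members' share of all 11853 regions.

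Members were spread over all 19 chromosomes, from 12 on chromosome 16 to 41 on chromosome 7. The share on chromosome 7 was 8.20% of members against 6.24% of other regions, and on chromosome 1 it was 4.60% against 7.07%. No intervals were computed for the chromosome shares, so neither is read as a difference.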

How the data were processed

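The deposited files are 6 lists of peaks in the 10-column narrowPeak layout, 1 per library, none pooled. Per the submitters' processing notes, Trim Galore 0.6.4, Bowtie2 2.3.4.3, MACS2 and the build mm10 were used; per the file contents, names of peaks mention a mapping quality of 30. The control and the calling threshold are not given in the sources used here. The deposited fold, a linear ratio, sets a peak in 1 library against a local background. Whether that background came from the same library or from the input is not given. The deposited −log10 p and −log10 q belong to 1 library as well. The authors' score is 10 times the −log10 q, rounded down. None is scaled between libraries. No total read counts come with the lists. Their lowest −log10 q was 1.35 to 1.38 in the kainic acid lists, so absence from a list means only that no peak was called there.

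Peaks were merged, ranked and annotated with Python 3.11.15, pandas 2.3.3 and SciPy 1.17.1, after the steps had been checked on made-up lists. The summit of a region in a list is that of its highest peak, and its point is the median of 3 summits. Gene spans came from RefSeq (GRCm38.p6), protein-coding genes only. A region is named after the shortest gene that holds its point, or else after the gene with the nearest end. Pileups were solved from fold and p as in a Poisson model, within a tolerance of 0.001, for every peak. Shares have 95% Clopper-Pearson intervals, and no p-value is given, since regions are not replicates.

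The members and gene lists were chosen with earlier results of these data known. Named members were the 20 of best mean rank, those with saline replicate 1 peaks and the 10 best with saline replicate 2 peaks, the 10 best within 1 kb of a gene end, and the 5 best beyond 100 kb from any gene. Also named were the 3 widest, narrowest and most unevenly ranked, 3 on each side of place 500, up to 20 near activity-regulated genes, and genes holding at least 3. Other genes named were chosen after their values were seen, and some members that the rule names are not reported here. The 5 listed genes on chromosome X were left out of the gene counts, since members lie on chromosomes 1 to 19.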

Additional observations from a re-analysis of the deposited data

How the results depend on the processing

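The cause of a moved value was not tested unless the alternative itself fixes it. Recomputing the 9 results gave 71 alternative values, of which 48 stayed within a set spread or counting interval around the value in the report and 23 moved. For merged width that spread was the SD of the median highest-peak width over lists, 184.7 bp. For summit spread it was the SD of the median summit distance over list pairs, 1.80 bp. Both are SDs of a related measure, so for these results same or moved depends on that choice. Members and other regions kept the direction of their difference in 54 of 56 comparisons. The exceptions were the shares beyond 100 kb of a gene, 11.4% for members against 11.4% and 11.7% for others, with ranking by −log10 q and without kainic acid replicate 2. With 250 members, 59.9% recurred in the left-out list, summits spread 54 bp, 11.2% had a saline replicate 2 peak, 46.8% were inside genes and 1.20% at gene ends. With 1000 members, summits spread 67 bp and 5.90% had a saline replicate 2 peak, and ranking by −log10 q gave a summit spread of 55 bp. With peaks of −log10 q of at least 5, 4.60% of members had a saline replicate 2 peak and 19.8% a neighbour within 10 kb, since fewer peaks are left. Other reaches gave 10.0% of members (others 12.6%) within 2.5 kb of a gene end, 61.4% (others 60.8%) with a neighbour within 50 kb, and 21% (others 16.5%) beyond 50 kb of a gene. With all annotated genes 61.2% (others 69.8%) were inside a gene. A reach of 10 kb gave 8.33% of activity-regulated genes. The mean width of the highest peaks had a median of 902 bp. Without saline replicate 2, an alternative chosen after seeing the data, the saline share was 0.800%.

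Leaving out each kainic acid list in turn gave 54.7% to 60.8% for recurrence in the remaining list, a summit spread of 35 to 37.5 bp over 2 summits, and 28.0% to 45.6% with a neighbour within 10 kb, the highest without replicate 1, where 24875 regions were shared. The saline replicate 2 share was 7.60% to 10.0%, the share inside genes 51.6% to 54.2%, at gene ends 4.20% to 5.00% and beyond 100 kb 11.4% to 12.6%. Median width was 981.5 to 1119.5 bp and the activity-regulated share 22.9% to 27.1%. Of the 500 members, 425, 432 and 436 were again among the 500 without replicates 1, 2 and 3, and 416 with ranking by −log10 q. Of the 63 named members, 9 were past place 500 with ranking by −log10 q, and 5, 7 and 11 without replicates 1, 2 and 3. No paired analysis was possible because no result compares the groups with a test and no label ties a replicate number to a shared animal or day. The lists give no sequencing depth, so pileups and folds could not be scaled between libraries, and shares over the 12 windows or 19 gene-end members have wide counting intervals.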
